A study of Mus musculus with 6 samples.

Results

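The alpha-arrestins are adaptor proteins with the arrestin fold, and in the mouse the genes Arrdc1, Arrdc2, Arrdc3, Arrdc4 and Txnip belong to them. They were read from RMA log2 expression values on Affymetrix whole-genome mouse arrays. Every probe set whose platform annotation gave exactly 1 of the 5 symbols was taken, which gave 9 probe sets: 3 for Arrdc1, 1 each for Arrdc2 and Arrdc3, and 2 each for Arrdc4 and Txnip. For each gene the brightest probe set by its 6-array mean led, and the others are given beside it. The genes are 5 of 18193 with a symbol of their own on the array. All 5 were among the 13090 genes tested, whose mean lay above 4.97, the 40th percentile of the non-control probe sets. The genes were chosen by family, but the family itself was selected on the Arrdc2 difference between the 2 vehicle groups of these same arrays. The vehicle comparison is therefore given for the members as a description. The number of members under the threshold of the fit over all genes is printed there once, beside the share of all genes, and supports nothing. Both GW2580 comparisons share arrays with it, so their p-values are not independent of that choice either.

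Alpha-arrestins sit on membranes and carry short proline-rich PPxY motifs that recruit ubiquitin ligases of the NEDD4 family to receptors and transporters, which are then internalised or sorted for degradation. Txnip, the thioredoxin-interacting protein, binds reduced thioredoxin and lowers glucose uptake by promoting internalisation of glucose transporters. Its gene and Arrdc4 are known targets of the glucose-sensing transcription factor MondoA (Mlxip) and its partner Mlx. Arrdc1 recruits the ESCRT subunit Tsg101 to the plasma membrane and drives budding of small vesicles there. Arrdc3 is known in breast cancer cells as a regulator of integrin beta 4 and of adrenergic receptor traffic.

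The arrays were made from MVT1 cells, 1 mouse line of mammary tumour origin that metastasises to the lung, tagged with green fluorescent protein (GFP). FVB/N mice received 3000000 of these cells by vein, and GFP-positive cells were sorted from their lungs. The GW2580 group was collected at 2 weeks after daily gavage with GW2580, a kinase inhibitor of the CSF1 receptor, at 160 mg per kg from 1 week after injection. The 2-week vehicle group was dosed in the same way with the carrier, hydroxypropylmethylcellulose and Tween-80, and the 1-week vehicle group was collected at 1 week. Each group had 2 arrays. The design text gives 2 mice for each vehicle group. The sources used here do not give the number of mice behind the GW2580 arrays, so p-values may rest on technical spread. Gavage began at 1 week, and the sources used here do not say whether the mice collected at 1 week had been dosed. If they had not, dosing and time cannot be told apart between the vehicle groups. In sorted cells, fewer cells of a type and less RNA per cell cannot be told apart either.

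The labelled cell type was checked against its markers. The luminal keratins Krt8 and Krt18 averaged 13.63 and 13.12 log2 units over the 6 arrays and Epcam 7.05, while Cdh1 lay below the filter at 3.67. Of 5 macrophage and monocyte markers 4 passed the filter, of 5 lung epithelial markers 5, of 5 endothelial markers 3 and of 5 fibroblast markers 5. The filter is passed by most genes, and which cells these transcripts came from was not tested. One array stood apart in RNA quality. On 2-week vehicle replicate 2 the 3′ signal of the actin control exceeded its 5′ signal by 1.20 log2 units, while the remaining 5 arrays gave 0.379 to 0.499. The Gapdh control gave 0.92 there, against -0.133 to -0.101 on the others. Some results are therefore also given without that array, but not all of those it moves.

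The upstream sequences of the 3 genes with the largest differences between the vehicle groups are shown first, since they differ in the short motifs they hold. Each is the 250 bases before the start of the annotated gene, 5′ to 3′ on the gene's own strand, from RefSeq (GRCm38.p6). Capitals mark matches to 5 motifs, which were picked with the results and these sequences in view. They are the E-box CACGTG, bound by basic helix-loop-helix factors; a carbohydrate-response-type pair, which is CACGNG followed after 5 free bases by CACGNG, of the kind MondoA and Mlx bind; the forkhead element GTAAACA; a glucocorticoid-response-type pair, which is GNACA followed after 3 free bases by TGTNC; and the NF-Y box CCAAT, which reads ATTGG on the other strand. Both strands were searched.
Txnip, chr3:96557707-96557956, plus strand: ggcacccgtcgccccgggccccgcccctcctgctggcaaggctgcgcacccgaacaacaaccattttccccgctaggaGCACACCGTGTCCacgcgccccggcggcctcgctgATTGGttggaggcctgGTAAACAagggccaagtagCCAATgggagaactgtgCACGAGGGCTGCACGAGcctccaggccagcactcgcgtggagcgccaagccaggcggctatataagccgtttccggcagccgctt
Arrdc4, chr7:68749239-68749488, minus strand: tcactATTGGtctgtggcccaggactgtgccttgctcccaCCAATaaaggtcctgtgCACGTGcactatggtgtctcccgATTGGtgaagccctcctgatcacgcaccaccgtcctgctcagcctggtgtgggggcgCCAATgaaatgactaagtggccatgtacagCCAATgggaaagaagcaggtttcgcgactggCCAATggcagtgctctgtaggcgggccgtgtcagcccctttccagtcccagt
Arrdc2, chr8:70839721-70839970, minus strand: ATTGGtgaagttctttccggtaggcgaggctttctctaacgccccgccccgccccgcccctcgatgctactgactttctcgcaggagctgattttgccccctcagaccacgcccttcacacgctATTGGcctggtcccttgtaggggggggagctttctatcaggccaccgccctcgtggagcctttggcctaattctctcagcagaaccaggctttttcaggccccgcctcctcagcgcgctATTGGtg

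Txnip held 4 of the 5 motifs. The carbohydrate-response-type pair, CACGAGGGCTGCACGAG, lay 85 to 69 bases before the start, the forkhead element at 121 to 115, and the glucocorticoid-response-type pair at 172 to 160. NF-Y boxes lay at 137 to 133 and 102 to 98. Of 32851 RefSeq upstream windows of the same length, 15 (0.0457%) held that carbohydrate-response-type pair, 3.17% the forkhead element and 0.387% the glucocorticoid-response-type pair. The Txnip window is itself among these windows, and the motifs were picked with it in view. These shares therefore do not measure how unusual its matches are. Arrdc4 held the E-box at 193 to 188, which 6.02% of windows hold, and 6 NF-Y boxes. Arrdc2 held 3 NF-Y boxes and none of the other motifs, and 33.8% of windows hold at least 1 NF-Y box. Arrdc3 held 1 NF-Y box and Arrdc1 held no match. RefSeq gave 3 upstream entries for Arrdc3, and only the one at the annotated gene start was read for it. The Arrdc1 window is that of the RefSeq promoter entry, which starts from a site inside the annotated gene, so 54 of its 250 bases lie within the gene span. No matches overlapped each other in these 5 windows. An E-box can lie inside a carbohydrate-response-type pair, but did not here. A match is a run of letters and was not tested as a binding site.

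**Figure D1:**
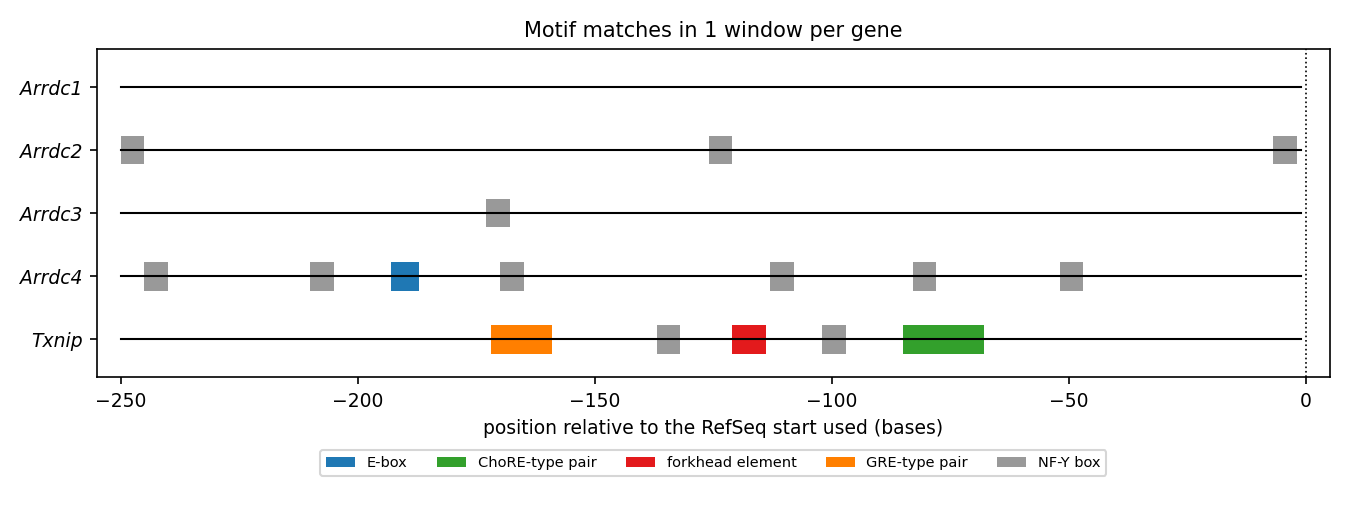
Motif matches in 250 bases before the RefSeq start used for each of the 5 genes, with position relative to that start in bases on the x axis and 1 row per gene. Boxes are matches on either strand, coloured by motif. Txnip holds the carbohydrate-response-type (ChoRE-type) pair, the forkhead element and the glucocorticoid-response-type (GRE-type) pair, and Arrdc4 holds the E-box and 6 NF-Y boxes.

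The genes themselves lie on 5 chromosomes. In GRCm38.p6, Arrdc1 spans chr2:24925352-24935335 (minus strand), Arrdc2 chr8:70835129-70839720 (minus), Arrdc3 chr13:80883384-80896042 (plus), Arrdc4 chr7:68736994-68749238 (minus) and Txnip chr3:96557957-96561857 (plus). The windows searched for the 5 genes were 58.0% to 76.0% G and C.

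The first comparison asked how the genes of tumour cells in the lung differed between the later and the earlier vehicle group. Arrdc2, Arrdc4 and Txnip were higher at 2 weeks than at 1 week, by 5.61-fold, 2.64-fold and 2.69-fold. Arrdc3 was 2.07-fold higher. Arrdc1 differed by 0.11 log2 units. In all 5 genes both 2-week vehicle arrays read above both 1-week vehicle arrays, an ordering that 31.5% of all genes tested also had.

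Arrdc2, an alpha-arrestin whose cargo is less well described than that of its relatives, gave 8.80 and 8.33 log2 units on the 2-week vehicle arrays, against 5.94 and 6.21 on the 1-week vehicle arrays. The arrays of one group lay at most 0.47 apart, and the groups lay far from each other. The group means were 8.56 ± 0.33 at 2 weeks and 6.07 ± 0.19 at 1 week (SD, n = 2 each). The difference of 2.49 log2 units (SE 0.40, from limma) was the 6th highest among all genes tested, and this is the value the family was selected on.

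Txnip gave 11.58 and 11.34 on the 2-week vehicle arrays, against 9.75 and 10.31 on the 1-week vehicle arrays. The higher 1-week array still lay below both 2-week arrays. Its means were 11.46 ± 0.18 at 2 weeks and 10.03 ± 0.39 at 1 week (SD, n = 2 each), a difference of 1.43 log2 units (SE 0.29). The other Txnip probe set gave 11.11 and 10.02 at 2 weeks, against 9.31 and 9.80 at 1 week. It differed by 1.01 log2 units (SE 0.46). Its lower 2-week value was that of the array with the high 3′ to 5′ control difference.

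Arrdc4, an adaptor for NEDD4-family ligases and a relative of Txnip in glucose uptake, gave 9.93 and 8.94 on the 2-week vehicle arrays, against 7.97 and 8.10 on the 1-week vehicle arrays. The 2-week arrays lay nearly 1 log2 unit apart, and the 1-week arrays close together. Its means were 9.44 ± 0.70 at 2 weeks and 8.03 ± 0.09 at 1 week (SD, n = 2 each), a difference of 1.40 log2 units (SE 0.29). The other Arrdc4 probe set gave 7.85 and 7.61 at 2 weeks, against 7.41 and 7.33 at 1 week. Its difference of 0.36 log2 units was in the same direction and smaller. The size of the Arrdc4 difference thus depended on the probe set.

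Arrdc3 gave 7.68 and 8.15 on the 2-week vehicle arrays, against 6.68 and 7.05 on the 1-week vehicle arrays. The groups did not overlap, and the lower 2-week array still read above the higher 1-week array. The difference was 1.05 log2 units (SE 0.27). Arrdc1 gave 9.30 and 9.21 at 2 weeks, against 9.12 and 9.16 at 1 week. Its difference was 0.11 log2 units (SE 0.12). Its other probe sets differed by 0.18 and 0.03.

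**Figure D2:**
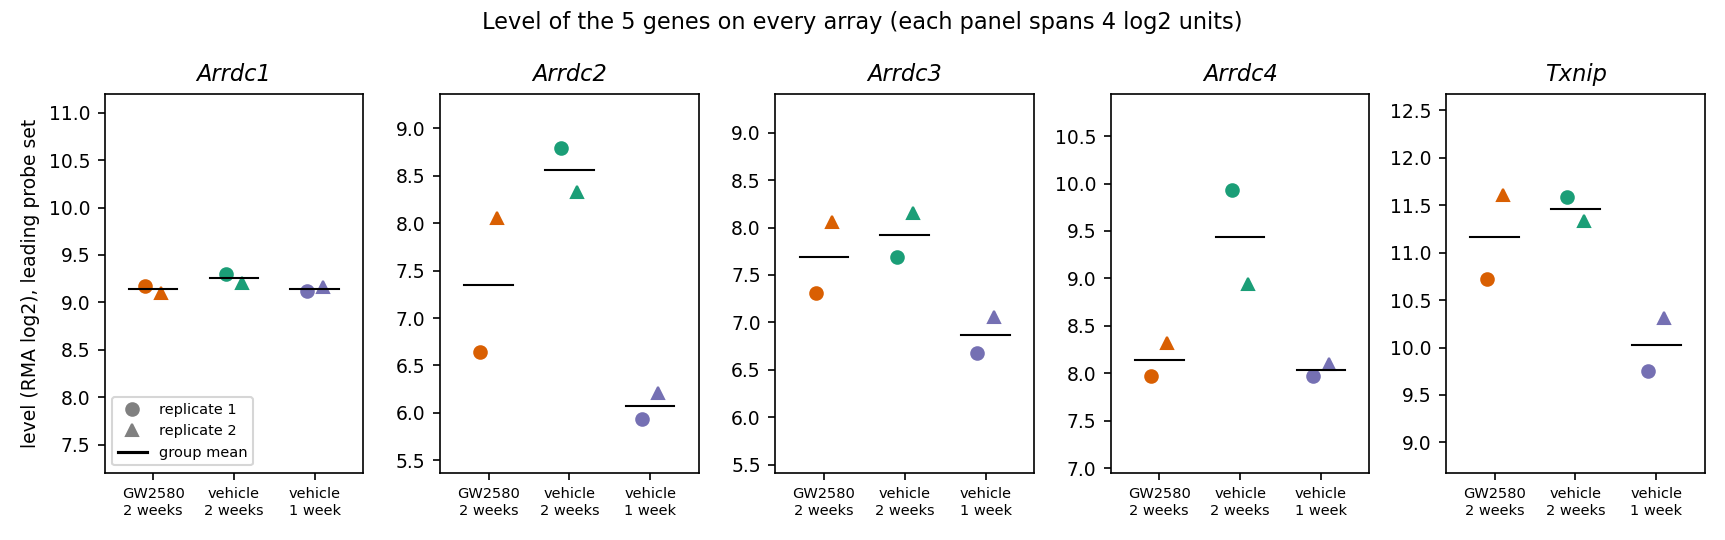
Level of the leading probe set of each gene on every array, in RMA log2 units on the y axis, for GW2580 at 2 weeks, vehicle at 2 weeks and vehicle at 1 week on the x axis. Circles and triangles are the 2 replicates and bars the group means. Arrdc2 sits at 8.80 and 8.33 on the 2-week vehicle arrays, against 5.94 and 6.21 on the 1-week vehicle arrays, and its GW2580 arrays lie between those groups at 6.64 and 8.06.

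A gene was called in the fit over all genes when its limma p, adjusted by the Benjamini-Hochberg method, was under 0.05. Arrdc2, Arrdc4 and Txnip, 3 of the 5 genes, came under that threshold between the vehicle groups, all of them higher at 2 weeks. Among all genes tested 6.45% were called and 3.74% were called higher. The family was selected on this contrast, so nothing is read from its count. The median of all genes was 0.0168 log2 units. Whether Arrdc2, Arrdc4 and Txnip differed more than Arrdc1 or Arrdc3 was not tested.

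Leaving out 1 vehicle array cannot turn the direction of Arrdc2, Arrdc4 or Txnip, since their vehicle groups did not overlap. Only the sizes of their differences are therefore described. Without 2-week vehicle replicate 2, the array with the high control difference, they were 2.72, 1.90 and 1.55 log2 units. Without 2-week vehicle replicate 1 they were 2.25, 0.91 and 1.30. Without 1-week vehicle replicate 1 they were 2.35, 1.34 and 1.15, and without 1-week vehicle replicate 2 they were 2.62, 1.47 and 1.71. The Arrdc4 value moved the most, between 0.91 and 1.90, with the choice of 2-week vehicle array.

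**Figure D3:**
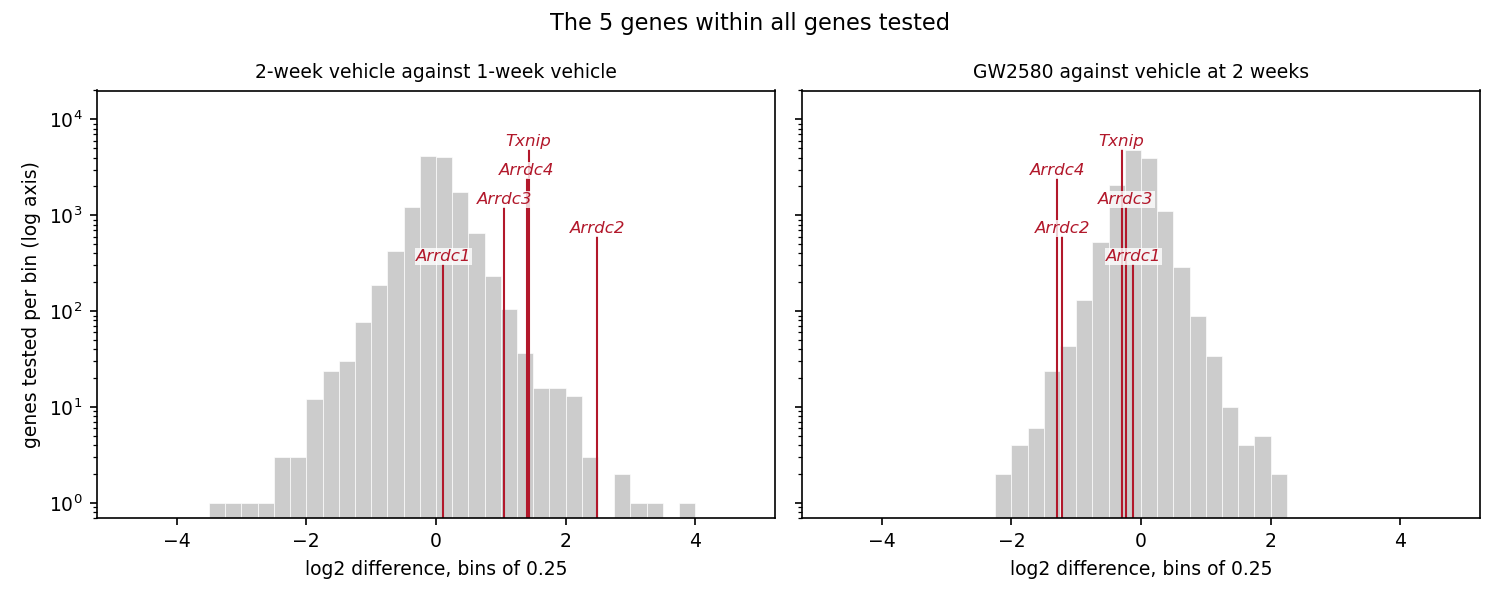
Number of genes tested (y axis, log scale) by log2 difference (x axis, bins of 0.25) for 2-week against 1-week vehicle at left and GW2580 against vehicle at 2 weeks at right, with the 5 genes as red lines whose heights carry no value. At left Arrdc2 lies in the far upper tail at 2.49, while at right Arrdc4 and Arrdc2 lie in the lower tail at -1.29 and -1.21.

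The second comparison set the CSF1 receptor inhibitor against vehicle at 2 weeks. None of the 5 genes was called by limma, where 0.367% of all genes were. An unadjusted p under 0.05 was reached by 2 of the 5, Arrdc2 and Arrdc4, and by 18% of all genes. Arrdc4 and Arrdc2 had the most negative differences of the family. On Arrdc1, Arrdc2 and Arrdc4, 3 of the 5, the GW2580 arrays read below both vehicle arrays, as 31.5% of all genes did. Txnip and Arrdc3 differed little, with overlapping groups.

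Arrdc4 gave 7.97 and 8.32 log2 units on the GW2580 arrays, against 9.93 and 8.94 on the 2-week vehicle arrays. The GW2580 arrays lay near the level of the 1-week vehicle arrays, at 7.97 and 8.10. The mean was 8.14 ± 0.25 with GW2580 and 9.44 ± 0.70 with vehicle (SD, n = 2 each), a difference of -1.29 log2 units (SE 0.29, 95% interval -1.96 to -0.63). That was the 31st most negative of all genes tested and did not pass the threshold (limma adjusted p = 0.0919). The difference was -1.79 without 2-week vehicle replicate 2, the array with the high control difference, and -0.80 without 2-week vehicle replicate 1. The other Arrdc4 probe set gave 7.45 and 7.75 with GW2580, against 7.85 and 7.61 with vehicle, overlapping values with a difference of -0.13.

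Arrdc2 gave 6.64 and 8.06 on the GW2580 arrays, against 8.80 and 8.33 on the 2-week vehicle arrays. Its GW2580 arrays lay 1.41 log2 units apart, more than the gaps of 0.47 and 0.27 in the vehicle groups. The difference was -1.21 log2 units (SE 0.40, 95% interval -2.13 to -0.30, limma adjusted p = 0.179). GW2580 replicate 1 carried most of it. Without replicate 2 of GW2580 the difference was -1.92 (adjusted p = 0.0429), and without replicate 1 it was -0.50 (adjusted p = 0.445). Each of these fits has 1 GW2580 array, which is assumed to vary like the arrays of the vehicle groups.

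Txnip gave 10.72 and 11.61 on the GW2580 arrays, against 11.58 and 11.34 on the 2-week vehicle arrays. The vehicle arrays lay inside the range of the GW2580 arrays. The difference was -0.30 log2 units (SE 0.29, 95% interval -0.98 to 0.38, limma adjusted p = 0.632), and the other Txnip probe set differed by 0.14. Without GW2580 replicate 1 the Txnip difference was 0.15, so its direction rested on that array.

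Arrdc3 gave 7.31 and 8.06 with GW2580, against 7.68 and 8.15 with vehicle, and the groups overlapped. Its difference was -0.23 log2 units (95% interval -0.85 to 0.38, limma adjusted p = 0.687), and its direction turned without GW2580 replicate 1, to 0.14. Without 2-week vehicle replicate 2 it was 0.000274. Arrdc1 gave 9.18 and 9.10 with GW2580, against 9.30 and 9.21 with vehicle. Its difference was -0.12 log2 units (95% interval -0.40 to 0.16, limma adjusted p = 0.652). On Arrdc2, Arrdc3, Arrdc4 and Txnip, GW2580 replicate 1 read lower than GW2580 replicate 2.

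**Figure D4:**
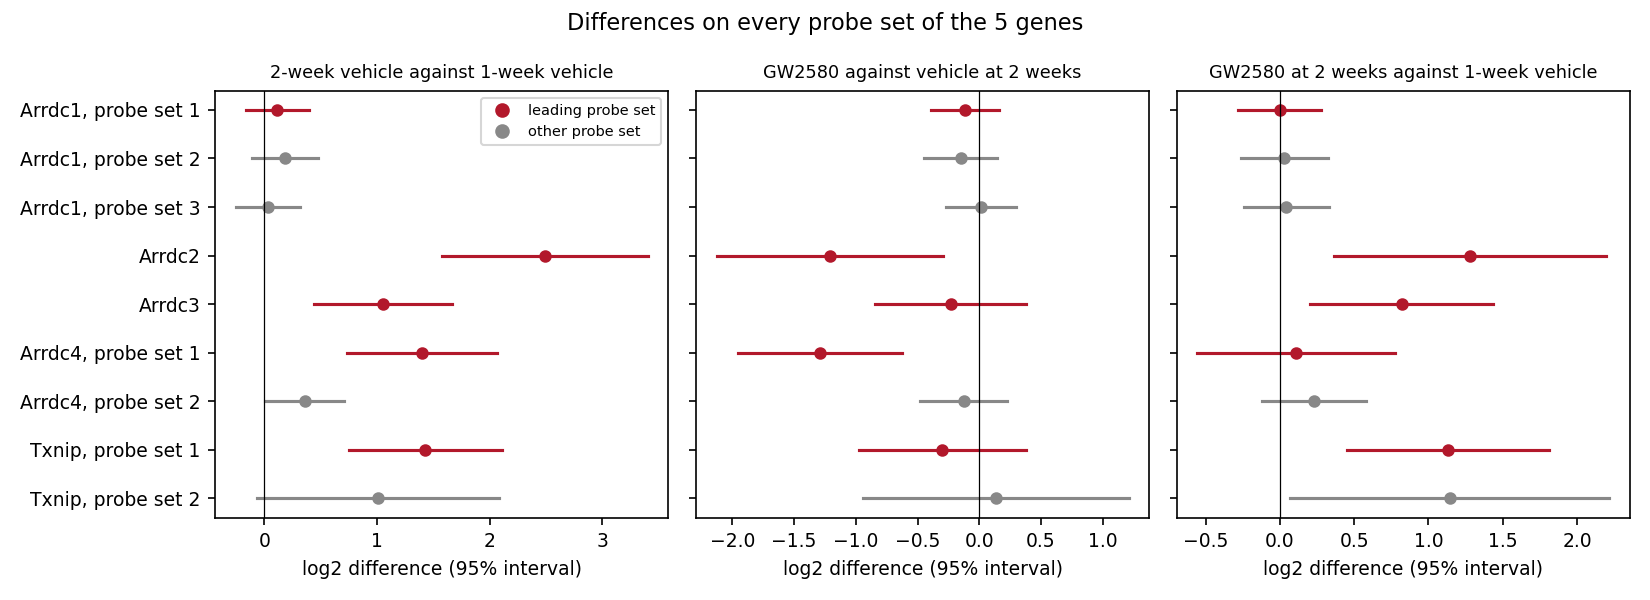
Log2 difference with its 95% interval (x axis) on every probe set of the 5 genes (rows), for the 3 comparisons in separate panels. Red points are leading probe sets and grey points the others. Arrdc2 stands at 2.49 for 2-week against 1-week vehicle and at -1.21 for GW2580 against vehicle, and the other Arrdc4 probe set lies nearer to 0 than the leading one in the first 2 panels.

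Set against the 1-week vehicle arrays, the GW2580 arrays gave no call by limma on any of the 5 genes, where 0.512% of all genes were called. An unadjusted p under 0.05 was reached by 3 of the 5, Arrdc2, Arrdc3 and Txnip, and by 17% of all genes. Both comparisons of GW2580 use the same GW2580 arrays, and the first 2 comparisons share the 2-week vehicle arrays, so the values are set side by side and not related to each other. Arrdc2 gave 6.64 and 8.06 with GW2580, against 5.94 and 6.21 at 1 week, a difference of 1.28 log2 units (95% interval 0.36 to 2.19, limma adjusted p = 0.164). Txnip differed by 1.13 (95% interval 0.45 to 1.81, adjusted p = 0.113) and by 1.14 on its other probe set. Arrdc3 differed by 0.82 (95% interval 0.21 to 1.43, adjusted p = 0.178). In these 3 genes both GW2580 arrays read above both 1-week arrays, as 18.8% of all genes did. Arrdc4 overlapped, with a difference of 0.11 (95% interval -0.56 to 0.78, adjusted p = 0.892), and Arrdc1 differed by -0.0018 (95% interval -0.28 to 0.28, adjusted p = 0.997). Without GW2580 replicate 1, Arrdc2 differed by 1.99 and Txnip by 1.57. Without GW2580 replicate 2 they differed by 0.57 and 0.69. Each of these values rests on 1 GW2580 array, so the size of both differences depended on that choice.

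The order of the groups thus differed between genes. Arrdc2 was highest in the 2-week vehicle group and lowest in the 1-week vehicle group, with GW2580 between and none of the 3 groups overlapping. Arrdc4 was highest in the 2-week vehicle group, while its GW2580 and 1-week vehicle arrays overlapped. Txnip and Arrdc3 were lowest in the 1-week vehicle group, and their GW2580 and 2-week vehicle arrays overlapped. Arrdc1 spanned 0.20 log2 units over all 6 arrays. Whether the genes differed from each other in these orders was not tested.

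Marker genes of other cell types varied across the same arrays. The summed linear signal of the macrophage and monocyte markers was 1753 and 3246 with GW2580, 2451 and 3026 in the 2-week vehicle group, and 1662 and 2196 in the 1-week vehicle group. On GW2580 replicate 1 and 1-week vehicle replicate 1, the leading probe sets of Arrdc2, Arrdc3, Arrdc4 and Txnip were the lower, as was that sum. The fibroblast, lung epithelial and epithelial tumour sums were the higher on both of these arrays, and the endothelial sum only on the 1-week array. The other Arrdc4 probe set was the higher on 1-week vehicle replicate 1, at 7.41 against 7.33. On 2-week vehicle replicate 1 the macrophage and monocyte sum and Arrdc3 were the lower, while Arrdc2, Arrdc4 and Txnip were the higher. Of the 4 markers tested, Cd68 differed by 0.98 log2 units between 2-week and 1-week vehicle (limma adjusted p = 0.115). The differences of the other 3 were below 0 there. The pan-leukocyte gene Ptprc was lower in the 2-week vehicle group than in the 1-week vehicle group, by 0.61 log2 units (limma adjusted p = 0.0387), and Csf1r averaged 7.63. The fibroblast sum was 2695 and 869 with GW2580, 1076 and 1166 in the 2-week vehicle group, and 4462 and 1925 in the 1-week vehicle group. Both 2-week vehicle arrays lay below both 1-week vehicle arrays on that sum. The lung epithelial sum was 2487 and 635 with GW2580, 1825 and 1411 in the 2-week vehicle group, and 3253 and 1877 in the 1-week vehicle group. Of its 5 genes, Sftpd was called higher in the 2-week than in the 1-week vehicle group, and Sftpd and Sftpa1 were called lower with GW2580 than with 2-week vehicle. Scgb1a1, a gene of airway club cells in the same list, went the other way without passing, with -3.16 log2 units between 2-week and 1-week vehicle (limma adjusted p = 0.109) and 1.97 between GW2580 and 2-week vehicle (adjusted p = 0.356). The other 4 genes of the list, all of surfactant proteins, had differences above 0 between the vehicle groups, while the summed signal was lower at 2 weeks. These lung genes are named after their values were seen. The endothelial sum was 217 and 228 with GW2580, 231 and 241 in the 2-week vehicle group, and 250 and 214 in the 1-week vehicle group. The sum of the epithelial tumour markers was 20473 and 20366 with GW2580, 20046 and 21267 in the 2-week vehicle group, and 25955 and 24557 in the 1-week vehicle group. The part of other cells in the values of the 5 genes was not tested.

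The proteins that alpha-arrestins work with were read from 6 lists. Of the 54 partner genes tested, limma called 1 between the vehicle groups, none between GW2580 and 2-week vehicle and none between GW2580 and 1-week vehicle. Over all genes 6.45%, 0.367% and 0.512% were called in these comparisons. At an unadjusted p under 0.05 there were 5, 8 and 5 partner genes. Over all genes it was 3088 of 13090 between the vehicle groups, 18% between GW2580 and 2-week vehicle and 17% between GW2580 and 1-week vehicle. The list medians lay between 0.00264 and 0.144 log2 units between the vehicle groups, and between -0.203 and 0.232 between GW2580 and vehicle, against medians of 0.0168 and -0.0484 over all genes.

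Among arrestin-fold relatives, 7 of 9 listed genes were tested and none was called in any comparison. Arrb1, a beta-arrestin that turns off G protein-coupled receptors, differed by 0.70 log2 units between 2-week and 1-week vehicle (limma adjusted p = 0.222), and Arr3, the cone arrestin, by -0.23 (adjusted p = 0.321). With GW2580 against vehicle at 2 weeks, Arrb2 differed by -0.37 (adjusted p = 0.221) and Vps26a, a retromer subunit, by -0.20 (adjusted p = 0.471). The other Arrb2 probe set differed by 0.0205. Arrdc5 lay below the filter at 3.9, so nothing was tested on it.

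None of the 9 tested NEDD4-family ligases and adaptors was called in any comparison. Between 2-week and 1-week vehicle 8 of the 9 differences were above 0 and 1 below, where 52.9% of all genes were above 0. Nedd4l, a ligase that removes ion channels from the surface, gave the largest, 0.69 log2 units (limma adjusted p = 0.0936), with 9.82 and 9.95 at 2 weeks, against 8.95 and 9.45 at 1 week. Its other probe set above the filter differed by 0.193. Ndfip1, an adaptor of the same ligases, differed by 0.29 (adjusted p = 0.225). With GW2580 against 2-week vehicle, 3 differences were above 0 and 6 below, where 41.7% of all genes were above 0, and Ndfip2 and Ndfip1 stood at -0.35 and -0.28 (adjusted p = 0.188 and 0.301). Other probe sets of Ndfip2 differed by 1.54 and 0.0797, so that gene has no settled direction.

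All 13 ESCRT and vesicle-budding genes were tested and none was called. Between 2-week and 1-week vehicle 11 differences were above 0 and 2 below, where 52.9% of all genes were above 0. With GW2580 against 2-week vehicle 2 were above 0 and 11 below, where 41.7% of all genes were above 0. Both counts use the 2-week vehicle arrays, so they are not independent. Vps37a, a subunit of ESCRT-I with Tsg101, gave 7.84 and 7.64 with GW2580, against 8.45 and 8.43 with vehicle. The groups lay apart by more than their spread. The difference was -0.70 log2 units (SE 0.13, limma adjusted p = 0.0681), with -0.411 and -0.0241 on its other probe sets. Between the vehicle groups Vps37a differed by 0.38 (adjusted p = 0.123), with 0.488 and -0.357 on its other probe sets, so its direction there depends on the probe set. Vps28, also of ESCRT-I, differed by 0.40 (adjusted p = 0.133).

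The thioredoxin system held the 1 called partner. Txnrd3, a thioredoxin reductase best known from the testis, gave 7.77 and 7.90 in the 2-week vehicle group, against 6.64 and 6.77 in the 1-week vehicle group. The arrays of each group lay within 0.14 of each other. The difference was 1.13 log2 units (SE 0.14, 2.19-fold, limma adjusted p = 0.0112), and its other probe sets differed by 1.00 and 1.13. Txnrd3 gave 6.78 and 7.07 with GW2580, a difference of -0.91 from 2-week vehicle that did not pass (SE 0.14, adjusted p = 0.053), with -0.888 and -0.788 on its other probe sets. The call between the vehicle groups was lost without 1-week vehicle replicate 1 (adjusted p = 0.135) and without 2-week vehicle replicate 2 (adjusted p = 0.0512), fits in which the remaining array of that group is assumed to vary like the other groups. Txn1, the cytosolic thioredoxin that Txnip binds, differed by -0.25 between GW2580 and 1-week vehicle (adjusted p = 0.341), and its mitochondrial relative Txn2 by -0.34 between GW2580 and 2-week vehicle (adjusted p = 0.235).

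None of the 9 tested glucose-sensing and uptake genes was called. Mlxip, which encodes MondoA, differed by 0.17 between the vehicle groups (limma adjusted p = 0.537). The glucose transporter gene Slc2a3 differed by 0.27 there (adjusted p = 0.494). With GW2580 against vehicle at 2 weeks, the hexokinase gene Hk2 differed by 0.66 (adjusted p = 0.208) and the glucose transporter gene Slc2a1 by 0.32 (adjusted p = 0.28). The other 2 Slc2a1 probe sets gave 0.389 and 0.405. Mlxipl, which encodes the MondoA relative ChREBP, lay below the filter at 4.9.

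Of the receptors and other cargo, 7 of 8 listed genes were tested and none was called. Itgb4, the integrin beta 4 gene tied to Arrdc3, differed by 0.30 log2 units between GW2580 and 2-week vehicle (limma adjusted p = 0.408), and Egfr by 0.37 (adjusted p = 0.27). Other Egfr probe sets above the filter differed by -0.201, -0.0335, 0.24, -0.0777 and 0.122, so Egfr has no settled direction there. Between the vehicle groups Notch1 differed by 0.32 (adjusted p = 0.235) and the insulin receptor gene Insr by 0.25 (adjusted p = 0.361), where the mean of the Insr probe sets gave -0.027. Against 1-week vehicle, GW2580 arrays differed by 0.56 on Notch1 (adjusted p = 0.119) and by 0.50 on Insr (adjusted p = 0.146). The other Notch1 probe set differed by 0.397 there. The other Insr probe sets differed by -0.0368 and, below the filter, by -0.0444.

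**Figure D5:**
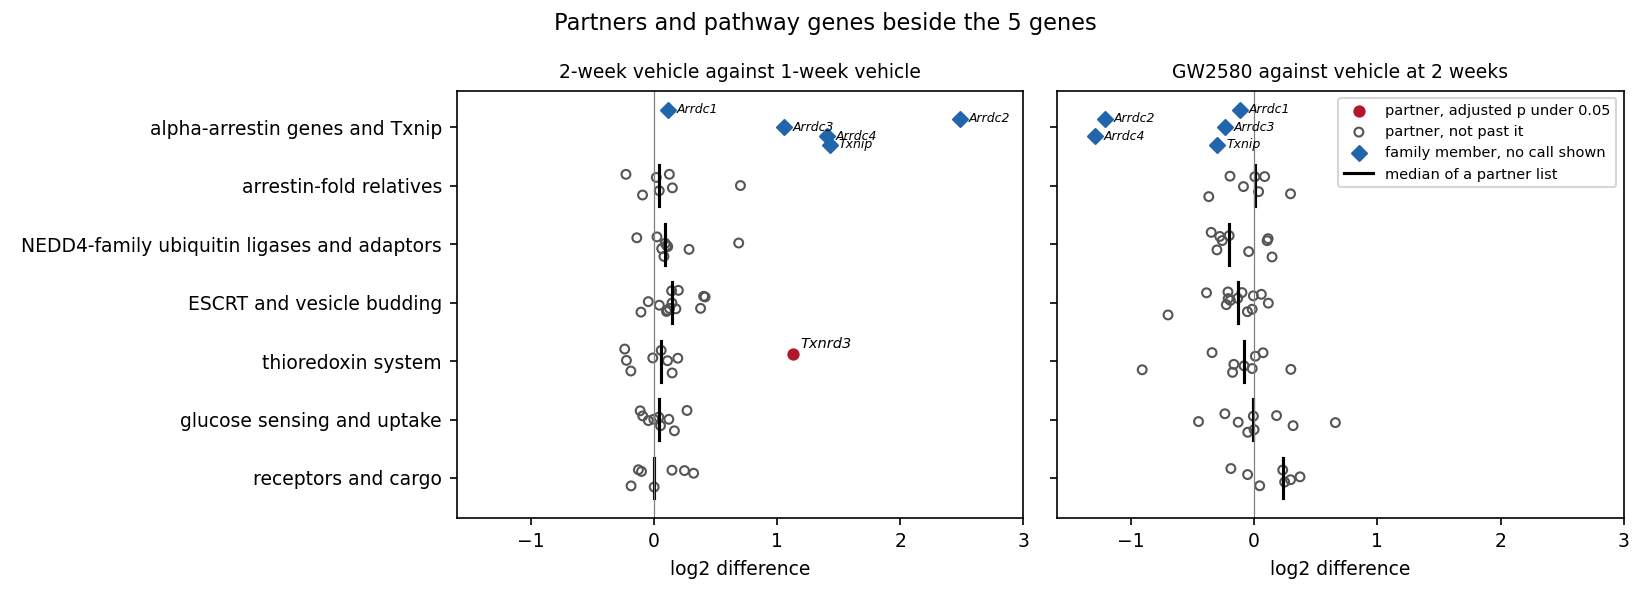
Log2 difference (x axis) of each tested gene in the family and in 6 partner lists (rows), for 2-week against 1-week vehicle at left and GW2580 against vehicle at 2 weeks at right. Blue diamonds are the family members, shown without calls because the left contrast chose the family. Red filled points are partner genes with an adjusted p under 0.05, open points the other partner genes, and black bars the list medians. Txnrd3 at left is the only red point in the 2 panels.

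Genes with the pattern most like each member over the 6 arrays were listed by Pearson's r, among 1256 genes (1257 for Arrdc1) that spanned at least 1 log2 unit. With 6 arrays, r follows the 3 groups and also gaps within a group, so no p is given. On Arrdc2, whose range was 2.86, the GW2580 arrays lay 1.415 log2 units apart. For Arrdc2 the 3 nearest were Mzt2, Taf1b and Gm16740 (r of 0.993, 0.992 and 0.990). For Txnip they were H1f2, a linker histone gene, Acy3 and Ccdc162 (0.995, 0.994 and 0.993). For Arrdc4 they were Fam120aos, Mir22hg and Vti1a (0.988, 0.987 and 0.987). For Arrdc3 they were Hhipl1, Cebpa, a myeloid and epithelial transcription factor gene, and Jup, which encodes plakoglobin (0.994, 0.991 and 0.991). Arrdc1, whose own range was 0.20, had Ccdc126, Zfp955b and Erlec1 (0.943, 0.938 and 0.917). No member appeared among the 3 nearest genes of another, and Arrdc1 could not, since its range was under 1 log2 unit. Between members, r ran from 0.263 (Arrdc1 and Arrdc3) to 0.948 (Arrdc2 and Txnip). Missing the 3 nearest therefore does not mean that the members varied apart.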

How the data were processed

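RNA of GFP-positive cells was read on 6 arrays. The authors deposited RMA log2 values for 45101 probe sets in 1 table, per the submitters' processing notes; the sources used here give no RMA version. RMA quantile-normalises arrays, which hides any change common to most genes. Array medians were 5.565 to 5.629. There is no read depth, and the small number of arrays sets the precision.

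Tests excluded 64 control probe sets. Of the other 45037, 34945 had 1 symbol, 932 several and 9160 none in the platform annotation. Each of 18193 genes was represented by its probe set of highest mean, and 13090 genes above the 40th percentile (4.97) were tested. limma 3.58.1 (R 4.3.3) fitted 3 group means over all 6 arrays, with eBayes without trend (3 residual and 4.97 prior degrees of freedom, prior SD 0.147). P-values were Benjamini-Hochberg adjusted over the 13090 genes, and a gene was called under 0.05. Other probe sets come from the same fit over all probe sets. Fold changes are 2 to the power of the log2 difference. A permutation test of 2 against 2 arrays cannot go below a two-sided p of 0.333, so none was used. The script was tested on simulated data.

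The members and lists were chosen with earlier results of these data known, and the motifs with the sequences seen too. The genes named were all 5 members on every probe set; from each list the called genes (up to 4 of smallest p) or, with none called, up to 2 of smallest p per comparison; and the 3 genes of highest r per member. All 5 members matched RefSeq by gene identifier. Alternatives covered the filter, array scaling, variance model, arrays in the fit, a replicate block, the probe set rule and leaving out each array.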

Additional observations from a re-analysis of the deposited data

How the results depend on the processing

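Each group had 2 arrays, which limits every test here. Of 130 recomputed member differences in the 2 GW2580 comparisons, 119 kept their direction and side of the threshold, 0 lost it, 4 gained it and 7 reversed. No member was called in these 2 comparisons, so none had a call to lose and the 0 was fixed in advance. Keeping the side there means staying uncalled, which does not measure robustness. The vehicle comparison, where members were under the threshold, is outside that count. Of 453 recomputed differences for named partners, 439, 2, 10 and 2 did so in the same order. Where an array is left out, the lone array of its group is assumed to vary like the other groups. The cause was not tested.

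Between the vehicle groups 3 members were under the threshold, on the contrast that chose the family, so their counts support nothing. Testing all probe sets gave 1, as Arrdc4 and Txnip moved over the threshold. Txnip also moved over it with trend and robust, and with a gene's probe sets averaged. Leaving out 1 array gave 0 to 4 members and 0 to 1059 genes, against 844, with 0 genes without 1-week vehicle replicate 1. Averaging a gene's probe sets gave a difference of 1.22 for Txnip and 0.88 for Arrdc4.

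Between GW2580 and vehicle at 2 weeks, 48 genes were called, against 74 with no filter, 131 with trend and robust, 0 with only the 4 arrays and 193 over all probe sets. Leaving out 1 array gave 0 to 167 genes and 0 to 1 members. Arrdc4 was not called in any of 13 alternatives (adjusted p 0.0785 to 0.327). Between GW2580 and 1-week vehicle, 67 genes were called, against 139 with trend and robust, 24 with only the 4 arrays and 36 over all probe sets. Leaving out 1 array gave 0 to 169 genes and 0 to 2 members. Txnrd3 passed with GW2580 against vehicle in 5 alternatives (adjusted p 0.0314 to 0.0469).

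With the replicate number as a block, 1223 genes were called between the vehicle groups, 0 members and 154 genes between GW2580 and vehicle, and 1 member (Arrdc3, 0.82, adjusted p = 0.0447) and 182 genes between GW2580 and 1-week vehicle. The sources used here do not say that the numbers pair the samples, and the values below do not settle it. Over 13090 genes, the deviations of replicate 1 correlated by 0.00221 between the vehicle groups, 0.00939 between GW2580 and 2-week vehicle and 0.292 between GW2580 and 1-week vehicle.

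Reversals were these. Averaging probe sets gave Insr -0.027 between the vehicle groups, Ndfip2 0.42 between GW2580 and vehicle, and Arrdc1 0.024 between GW2580 and 1-week vehicle. Leaving out 1 array moved Arrdc3 between -0.61 and 0.14 and Txnip between -0.74 and 0.15 (GW2580 against vehicle), where Arrdc3 was 0.000274 without 2-week vehicle replicate 2 and 0.14 without GW2580 replicate 1, as Txnip was 0.15. It moved Arrdc1 between -0.039 and 0.036 and Arrdc4 between -0.063 and 0.28 (GW2580 against 1-week vehicle), with Arrdc1 at 0.019 without 1-week vehicle replicate 2.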
